A study of Mus musculus with 24 samples.

Results

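The genes described here are the Toll-like receptor genes Tlr1, Tlr2, Tlr3, Tlr4, Tlr5, Tlr7, Tlr8 and Tlr13, with Cd14 and Ly96, whose products carry endotoxin to the receptor TLR4. They were taken by symbol, 10 of the 34436 symbols in the table. All 10 passed the filter on low counts, Tlr8 only through its level on cholesterol plus cholic acid. The RNA came from livers of C57BL/6 mice, all wild type, fed 1 of several diets for 8 weeks; feeding began at 8 to 10 weeks of age. The diets analysed here were normal chow (NC, 4 libraries), cholic acid alone (CA, 4), 2% cholesterol plus cholic acid (Chol_CA, 4), high sucrose (HS, 5) and the same sucrose diet plus 2% cholesterol (HS_Chol, 3). The labels number the livers but do not say that they are separate animals, so p-values here measure the spread between these samples.

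Toll-like receptors recognize molecules of microbes and start inflammatory signalling through adaptor proteins such as MyD88 and TRIF. TLR2 with TLR1, TLR4 and TLR5 stand at the cell surface and bind bacterial lipopeptides, lipopolysaccharide and flagellin. TLR3, TLR7, TLR8 and TLR13 lie in endosomes and bind nucleic acids. For lipopolysaccharide, CD14 hands the lipid to MD-2, the product of Ly96, which forms the binding complex with TLR4. In liver, blood from the gut passes Kupffer cells, the resident macrophages, which carry many of these receptors.

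Total reads per library ran from 6110484 to 10244277. Summed hepatocyte markers (10 genes) stood at 61677.7 to 132603 reads per 1000000 (CPM) and 11 markers of contaminating tissues at 40.5 to 157. The length trend is the slope, on log2 transcript length, of each gene's log2 CPM minus its mean over the 20 libraries. It can vary with RNA quality and library preparation. Being relative, its sign only places a library against the average of this set, and the part of diet in it was not tested. It was negative in 8 of 20 libraries: NC_3, HS_0, HS_1, HS_2, HS_Chol_0, CA_0, Chol_CA_0 and Chol_CA_1. The slope ran from −0.356 in Chol_CA_1 to 0.155 in Chol_CA_3, with HS_Chol_0 at −0.014. Counting on the wrong strand would raise reads of light-strand mitochondrial tRNA genes. For each 1000000 reads of heavy-strand mitochondrial mRNA these numbered 673 to 900 in HS_Chol and 8.95 to 83.4 elsewhere. A sample titled HS carries a normal chow diet label; which of the 5 HS columns it is cannot be told, and each was left out in turn.

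By GENCODE M21 on GRCm38, Tlr1 lies on chromosome 5 (64924679 to 64933563), Tlr2 on 3 (83836272 to 83841767), Tlr3 on 8 (45395665 to 45411080), and Tlr4 on 4 (66827584 to 66930284). Tlr5 (182954788 to 182976044) and Ly96 (16688051 to 16709611) lie on chromosome 1, and Cd14 on 18. The neighbours Tlr8 (167242696 to 167264329) and Tlr7 (167304929 to 167330558) and the more distant Tlr13 (106143204 to 106160493) lie on X. RefSeq promoter windows of 300 bases, 250 before the gene's start and 50 after it, were found for 6 of the 10 genes. The stretches before the start and outside the annotated gene are shown for 5 of them, 4 that rose together on Chol_CA and Tlr5, which fell. Capitals mark matches, on either strand, to the PU.1 core GAGGAA (PU.1 is a macrophage transcription factor) or to the NF-kB consensus.
Tlr1, chr5:64933564-64933808, minus strand: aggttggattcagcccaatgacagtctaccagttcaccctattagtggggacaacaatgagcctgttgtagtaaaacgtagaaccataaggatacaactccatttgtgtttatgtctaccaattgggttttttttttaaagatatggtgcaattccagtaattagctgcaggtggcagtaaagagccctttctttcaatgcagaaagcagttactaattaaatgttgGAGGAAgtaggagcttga
Tlr2, chr3:83841768-83841858, minus strand: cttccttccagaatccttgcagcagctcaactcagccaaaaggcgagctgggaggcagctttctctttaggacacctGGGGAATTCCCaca
Tlr8, chrX:167264330-167264579, minus strand: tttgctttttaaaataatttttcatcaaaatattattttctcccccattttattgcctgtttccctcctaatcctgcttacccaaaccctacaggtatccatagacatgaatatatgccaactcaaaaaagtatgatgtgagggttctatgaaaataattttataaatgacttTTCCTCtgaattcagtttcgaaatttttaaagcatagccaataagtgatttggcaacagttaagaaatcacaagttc
Tlr13, chrX:106143025-106143203, plus strand: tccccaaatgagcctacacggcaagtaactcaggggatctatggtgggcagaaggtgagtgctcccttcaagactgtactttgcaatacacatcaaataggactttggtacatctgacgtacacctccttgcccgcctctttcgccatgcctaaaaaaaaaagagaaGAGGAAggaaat
Tlr5, chr1:182954538-182954787, plus strand: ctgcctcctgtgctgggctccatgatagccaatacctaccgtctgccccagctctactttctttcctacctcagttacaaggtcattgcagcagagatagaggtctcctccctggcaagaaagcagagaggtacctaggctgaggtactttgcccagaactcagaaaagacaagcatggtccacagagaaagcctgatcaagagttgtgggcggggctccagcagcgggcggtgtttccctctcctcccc

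Counted from the RefSeq start, the PU.1 core stood at bases −23 to −18 in Tlr1, −83 to −78 in Tlr13 and, on the other strand, −77 to −72 in Tlr8. Overlapping NF-kB matches stood at −173 to −163 in Tlr2, which held a further one across the start. The Tlr3 window, not printed because it lies inside the annotated gene, held an NF-kB match at −211 to −202. None of the 4 motifs searched was in the Tlr5 window. Of all 32851 windows, 28.3% held the PU.1 core, 8.46% the NF-kB consensus, 7.81% the AP-1 site TGANTCA and 3.44% the IRF site of interferon regulatory factors. The windows of these 6 genes held neither of the last pair. These matches describe letters in a window.

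Cholesterol with cholic acid against chow asks how the combined diet changed these genes. Of the 10 genes, 8 were higher and 1 lower by edgeR's quasi-likelihood test at a Benjamini-Hochberg adjusted p under 0.05, with a median log2 fold change of 3.79. Over all 12595 genes tested, 15% were higher, 9.35% were lower and the median was 0.00. Cd14 and 7 receptor genes rose, Tlr5 fell, and Ly96 did not pass. Tlr8, included in the counts of 8 given here, was tested only because of its level in Chol_CA. In 8 genes every Chol_CA library was above every NC library, as in 14.2% of all genes tested, and in Tlr5 every one was below, as in 9.59%. All of these calls were kept in each of 16 alternatives.

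**Figure D1:**
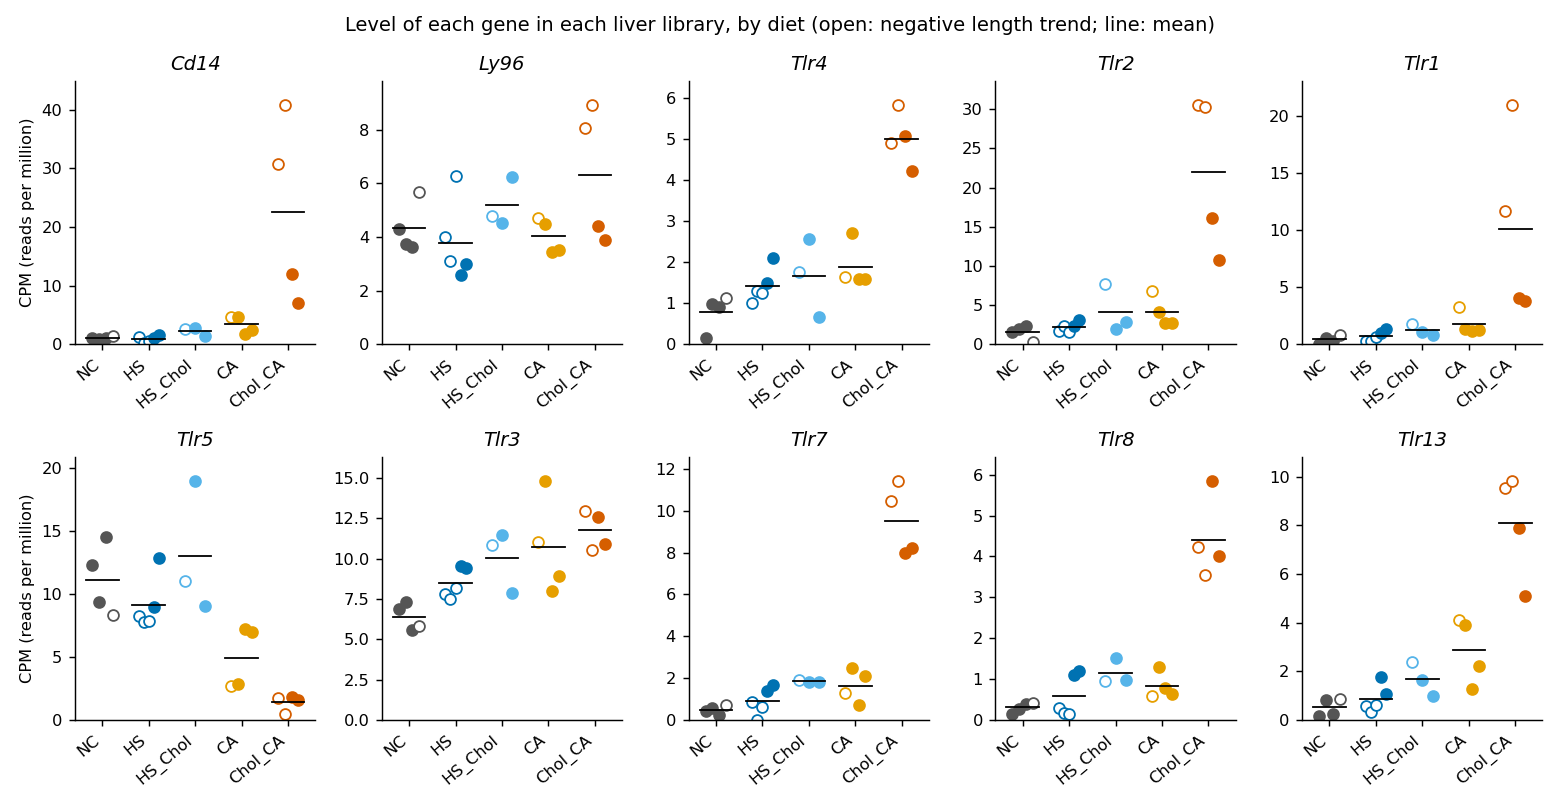
Level of each gene (CPM, vertical axis) in each liver library by diet, with the diet's mean as a line; open circles mark the 8 libraries with a negative length trend. In Chol_CA the open Cd14 circles stand at 30.8 and 40.8 CPM and the filled ones at 7.03 and 11.9, while Tlr5 stands at 0.457 to 1.85 CPM against 8.37 to 14.5 in NC.

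Within the endotoxin complex the genes differed. Cd14, which encodes the co-receptor that hands over lipopolysaccharide, stood at 1.00, 0.969, 1.04 and 1.42 CPM in the NC libraries. The Chol_CA libraries held it at 30.8, 40.8, 11.9 and 7.03 CPM. All Chol_CA values exceeded all others, and the libraries with a negative length trend held the highest. Its NC mean was 1.11 ± 0.21 CPM and its Chol_CA mean 22.6 ± 15.9 (SD, both n = 4), from 32 and 777 reads. Cd14 rose by 4.33 ± 0.54 on the log2 scale (adjusted p = 7.90e-06; the error is the SE). Among libraries with a positive length trend the log2 fold change was 3.21 (adjusted p = 7.03e-05), and without Chol_CA_0 and Chol_CA_1 it was 3.10 (adjusted p = 0.000129).

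Tlr4, the signalling receptor of the complex, stood at 0.143, 0.969, 0.907 and 1.14 CPM in NC and at 4.89, 5.83, 5.07 and 4.22 CPM in Chol_CA. Its values in Chol_CA spread little and did not sort by length trend. It rose by 2.64 ± 0.40 on the log2 scale (adjusted p = 4.80e-05), from 23 to 179 reads. Ly96, the MD-2 gene, stood at 4.29, 3.74, 3.63 and 5.68 CPM in NC and at 8.07, 8.92, 4.39 and 3.89 CPM in Chol_CA. The groups overlapped, with the libraries of negative length trend higher in both. Its log2 fold change was 0.54 ± 0.29 (adjusted p = 0.203), and −0.04 without Chol_CA_0 and Chol_CA_1. Per Ly96 read there were 0.233 to 0.286 Cd14 reads in NC and 1.81 to 4.58 in Chol_CA, with no length correction.

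Of the surface receptors, those for lipopeptides rose and the flagellin receptor fell. Tlr2 stood at 1.57, 1.94, 2.33 and 0.284 CPM in NC and at 30.5, 30.3, 16.1 and 10.8 CPM in Chol_CA. All Chol_CA values exceeded those of the other diets, of which HS_Chol_0 was highest at 7.66 CPM. The log2 fold change was 3.81 ± 0.49 (adjusted p = 1.06e-05), or 2.76 (adjusted p = 1.09e-05) among libraries with a positive length trend and 3.13 (0.000297) without Chol_CA_0 and Chol_CA_1. Tlr1, whose product pairs with TLR2, stood at 0 to 0.851 CPM in NC and at 11.6, 20.9, 4.00 and 3.78 CPM in Chol_CA. Again the libraries with a negative length trend held the most. It rose by 4.55 ± 0.68 (adjusted p = 4.61e-05), from 12 to 347 reads. The value was 5.15 without NC_3, 3.90 without Chol_CA_1, 3.75 among libraries with a positive trend and 3.20 without Chol_CA_0 and Chol_CA_1. Tlr6, a close paralog that may share reads with Tlr1, had 6 reads in NC and 53 in Chol_CA and was not among the genes tested.

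Tlr5, the flagellin receptor gene, stood at 12.3, 9.41, 14.5 and 8.37 CPM in NC. The 5 HS libraries held 8.25, 7.81, 7.84, 8.97 and 12.9 CPM and the HS_Chol libraries 11.005, 19.0 and 9.02 CPM. These 3 diets overlapped. The CA libraries held 2.70, 2.82, 7.20 and 7.004 CPM, below every NC library, and the Chol_CA libraries 1.72, 0.457, 1.85 and 1.62 CPM, below every library of any other diet. Against chow it fell by 2.96 on the log2 scale on Chol_CA (SE 0.39; adjusted p = 1.44e-05), from 325 reads to 51. Summed hepatocyte markers also differed, at 125839 to 132603 CPM in NC and 61677.7 to 77162.4 in Chol_CA. Per 100000 CPM of those markers Tlr5 stood at 8.74 ± 2.30 CPM in NC (n = 4), 5.04 ± 2.69 in CA (n = 4) and 1.96 ± 0.84 in Chol_CA (n = 4). It stood at 8.49 ± 2.58 CPM in HS (n = 5) and 14.5 ± 5.83 in HS_Chol (n = 3). On this scale CA (2.41 to 7.65 CPM) overlapped NC (6.31 to 11.4). In bulk liver, fewer cells of a type and less RNA per cell cannot be told apart.

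The endosomal receptors rose on Chol_CA by unequal amounts. Tlr7, a receptor gene for single-stranded RNA, stood at 0.429, 0.553, 0.259 and 0.709 CPM in NC and at 10.4, 11.4, 8.00 and 8.22 CPM in Chol_CA. Values within Chol_CA were close together. It rose by 4.25 ± 0.49 (adjusted p = 3.49e-06), from 14 to 337 reads. Tlr8, its neighbour on X, stood at 0.143 to 0.426 CPM in NC and at 4.23, 3.54, 5.85 and 4.00 CPM in Chol_CA, from 9 and 160 reads (log2 fold change 3.77 ± 0.49, adjusted p = 1.08e-05). Tlr8 reached the filter's level of 1.31 CPM in 5 libraries, 4 of them Chol_CA. Without that diet it would not have been tested.

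Tlr13, whose product binds bacterial ribosomal RNA, stood at 0.143, 0.830, 0.259 and 0.851 CPM in NC and at 9.52, 9.83, 7.90 and 5.08 CPM in Chol_CA. The groups were far apart, with a log2 fold change of 3.92 ± 0.50 (adjusted p = 9.71e-06). Tlr3, a receptor gene for viral RNA, rose far less, from 6.87, 7.33, 5.57 and 5.82 CPM in NC to 12.96, 10.5, 12.6 and 10.9 CPM in Chol_CA. Its log2 fold change was 0.88 ± 0.19 (adjusted p = 0.00148). An opposite-strand gene, Gm45542, overlaps 381 exonic bases of Tlr3, and the strand that was counted is not given in the sources used here.

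**Figure D2:**
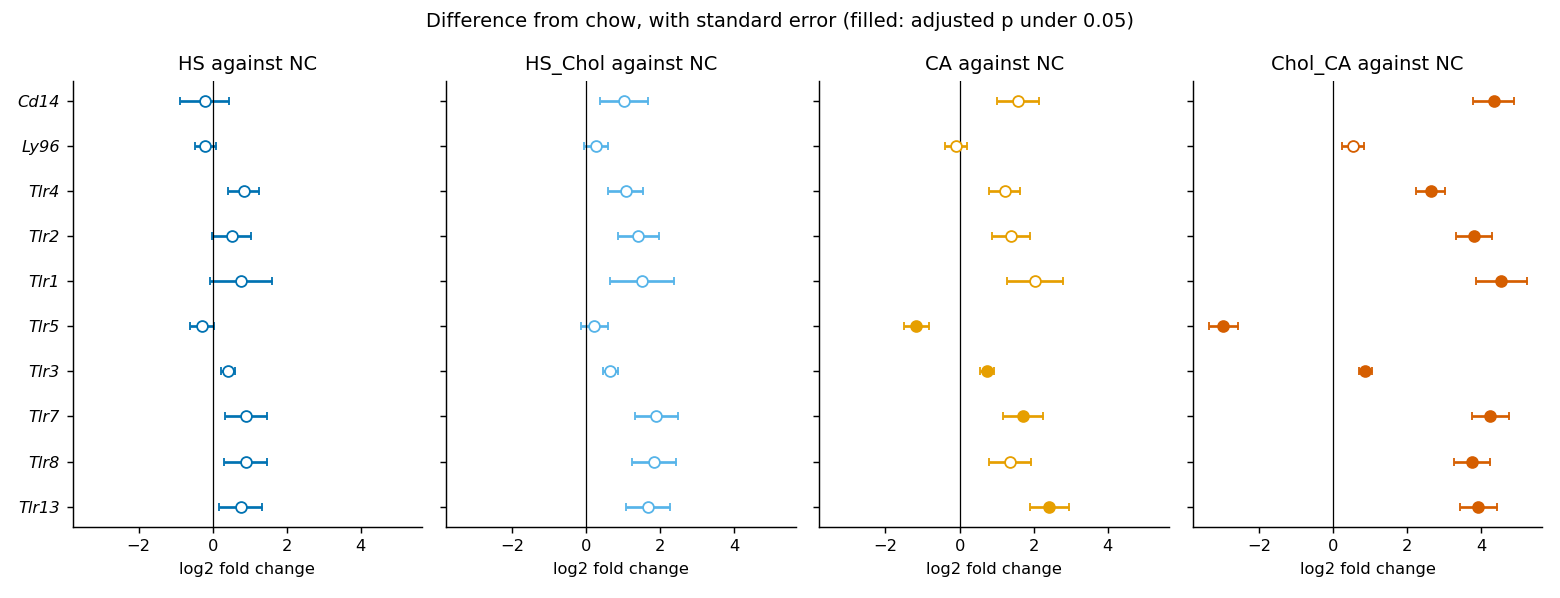
Log2 fold change of each gene against chow (horizontal axis) with its standard error, for 4 diets; filled points passed at an adjusted p under 0.05. On Chol_CA, Tlr5 stands at −2.96 and Tlr1 at 4.55, and on HS and HS_Chol no point is filled.

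Cholic acid alone against chow asks what the bile acid did without added cholesterol. Of the 10 genes 3 were higher (Tlr3, Tlr7, Tlr13) and Tlr5 was lower, against 5.22% higher and 4.61% lower over all genes tested. The median log2 fold change was 1.38 over the 10 genes and 0.01 over all genes. In 7 of the genes every CA library exceeded every NC library, as in 7.23% of all genes tested, and in Tlr5 every one was below, as in 6.39%. Of the 10, the higher genes numbered 7 with DESeq2, 5 among libraries with a positive length trend and 5 with a term for the trend. They numbered 1 without NC_2 or without CA_1. Over all genes tested, 657 of 12595 were higher in the main fit, 796 of 12595 with DESeq2 and 1521 of 12421 with a positive trend. With a trend term 1069 of 12595 were higher, without NC_2 422 of 12548, and without CA_1 495 of 12544. Comparisons against chow share the NC libraries.

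Tlr13 rose by 2.42 ± 0.52 on CA (adjusted p = 0.00512), with libraries at 4.11, 3.88, 1.28 and 2.23 CPM, all above NC, and passed in all 15 alternatives. Tlr3, at 11.03, 14.8, 7.99 and 8.91 CPM, also lay above every NC value and rose by 0.74 ± 0.19 (adjusted p = 0.0147). It did not pass in the fit of these diets alone (adjusted p = 0.0741), among libraries with a positive trend (0.0507), without NC_2 (0.0585) or without CA_1 (0.0693). Tlr7, at 1.29, 2.47, 0.690 and 2.12 CPM, overlapped NC in CA_2. Its log2 fold change was 1.72 ± 0.54 (adjusted p = 0.0489), and it passed in 4 of 14 alternatives (adjusted p 0.0112 to 0.152). It did not pass without any 1 of the NC libraries, CA_0, CA_1 or CA_3.

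Tlr5 fell by 1.16 on the log2 scale on CA (SE 0.34; adjusted p = 0.0351) and passed in 9 of 15 alternatives. It did not pass without NC_0 (adjusted p = 0.0828), NC_1 (0.0510), NC_2 (0.110), CA_0 (0.0900) or CA_1 (0.115), or in the fit of these diets alone (0.0673). Cd14, at 4.58, 4.71, 1.78 and 2.44 CPM, lay above every NC library, with a log2 fold change of 1.58 ± 0.57 (adjusted p = 0.0928; 0.0371 with DESeq2). Tlr1 (log2 fold change 2.03 ± 0.75), Tlr2 (1.40 ± 0.51), Tlr8 (1.36 ± 0.56) and Tlr4 (1.23 ± 0.42) did not pass either. Tlr1 stood at 3.29 CPM in CA_0, which has a negative length trend, and at 1.18 to 1.29 in the other CA libraries. Ly96 was at −0.11 ± 0.30 (adjusted p = 0.899).

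On sucrose, with or without cholesterol, edgeR over all diets called none of the 10 genes. In HS_Chol against NC edgeR called 0 (1.71% of all genes higher, 0.564% lower at an adjusted p). At an unadjusted edgeR p under 0.05, 6 were higher, and DESeq2 called Tlr7 higher. All 10 log2 fold changes were positive, with a median of 1.24. The share of all genes at an unadjusted p was not taken, so counts at that p, here and below, cannot be set against it. Tlr7 stood at 1.91, 1.81 and 1.80 CPM, above every NC and HS library, with a log2 fold change of 1.89 ± 0.58 (adjusted p = 0.106; 0.0252 with DESeq2; 0.0473 in a fit of these diets alone). Tlr3 stood at 10.8, 11.5 and 7.87 CPM (0.65 ± 0.20; adjusted p = 0.112, or 0.0493 without HS_Chol_2). In 5 genes the groups did not overlap, upward in each, as in 6.8% of all genes tested (5.58% downward). The raised light-strand reads of the HS_Chol libraries stand beside these values, and their part was not tested.

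In HS against NC edgeR called 0 of 10 (0.214% of all genes higher, 0.437% lower), as did DESeq2, and 1 was higher at an unadjusted p under 0.05. That gene, Tlr3, stood at 7.82, 7.49, 8.15, 9.52 and 9.44 CPM in HS, above every NC library (log2 fold change 0.41 ± 0.18, adjusted p = 0.405). Groups were apart upward in 2.17% of all genes tested and downward in 2.66%. In HS_Chol against HS edgeR and DESeq2 called 0 of 10, and 0 had an unadjusted p under 0.05 (1.6% of all genes higher, 0.651% lower by edgeR). Tlr7 was above every HS library there, as were 6.32% of genes (5.45% were below), with a log2 fold change of 1.00 ± 0.51 (adjusted p = 0.416). A p that misses the threshold does not show that levels were alike.

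Cholesterol added to cholic acid, Chol_CA against CA, raised 7 of the 10 genes and lowered Tlr5, where 13.4% of all genes were higher and 7.8% lower. The 7 include Tlr8, tested only because of its level in Chol_CA. The median log2 fold change was 1.95 over the 10 genes and 0.02 over all genes. Cd14 (log2 fold change 2.75 ± 0.47, adjusted p = 0.000443), Tlr7 (2.53 ± 0.41, 0.000265), Tlr1 (2.52 ± 0.55, 0.00272), Tlr2 (2.42 ± 0.43, 0.000655) and Tlr8 (2.40 ± 0.41, 0.000438) rose most. Tlr13 (1.50 ± 0.40, adjusted p = 0.0103) and Tlr4 (1.41 ± 0.35, 0.00635) rose less. Tlr5 fell by 1.80 (SE 0.40; adjusted p = 0.00321). In each of these 8 genes the groups did not overlap, as in 12.1% of genes upward and 7.25% downward. Tlr3 (0.14 ± 0.18, adjusted p = 0.654) and Ly96 (0.64 ± 0.29, 0.126) did not pass.

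Leaving out both Chol_CA libraries with a negative length trend ended the call of Tlr1 (1.17, adjusted p = 0.155) and Tlr13 (1.21, 0.108), and left Cd14 at 1.52 (0.0246) and Tlr2 at 1.74 (0.0226). Tlr13 also did not pass without CA_2 (1.20, adjusted p = 0.0574), and Tlr1 stood at 1.87 (0.0162) without Chol_CA_1. Within Chol_CA both libraries with a negative trend held more Cd14, Tlr1, Tlr2, Ly96, Tlr7 and Tlr13 than both with a positive trend. Tlr7 stood at 10.4 and 11.4 CPM against 8.00 and 8.22 there. The values of Tlr3, Tlr4, Tlr5 and Tlr8 overlapped, with Tlr4 at 4.89 to 5.83 CPM in the negative and 4.22 to 5.07 in the positive libraries. The part of the trend in these values was not tested.

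The cholesterol interaction, the difference with cholic acid minus the difference with sucrose, called Tlr5 lower and no other of the 10 genes (3.53% of all genes lower, 2.47% higher). Its value was −2.31 ± 0.53 (adjusted p = 0.0118): cholesterol came with a log2 change of 0.51 ± 0.34 beside sucrose and −1.80 ± 0.40 beside cholic acid. It passed in 22 of 24 alternatives, and not among libraries with a positive trend (−2.09, adjusted p = 0.0620) or without Chol_CA_0 and Chol_CA_1 (−2.01, 0.0507). Another 4 were higher at an unadjusted p under 0.05, with no share of all genes at that p to set beside the count. Tlr7 at 1.53 ± 0.66 (adjusted p = 0.189) and Tlr2 at 1.52 ± 0.67 (0.203) were among them.

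Levels can be compared between genes per length, here as reads per kilobase of exon per 1000000 reads. In NC, Ly96 stood highest at 4.24 ± 0.92 (n = 4), then Tlr5 at 2.33 ± 0.58 and Tlr3 at 1.23 ± 0.16. Cd14 (0.64 ± 0.12) and Tlr2 (0.51 ± 0.29) overlapped within their spread. The remaining receptors stood at 0.09 to 0.14, with spreads that overlap. In Chol_CA, Cd14 was at 13.1 ± 9.17 (n = 4), Tlr2 at 7.28 ± 3.33 and Ly96 at 6.19 ± 2.49, which overlap. Tlr1 (3.01 ± 2.42), Tlr7 (2.33 ± 0.41), Tlr3 (2.26 ± 0.23) and Tlr13 (1.88 ± 0.51) overlapped as well. Tlr8 stood at 1.23 ± 0.28, Tlr4 at 0.90 ± 0.12 and Tlr5 lowest at 0.29 ± 0.13. Tlr5 went from rank 2 in NC and HS_Chol to rank 10. With the longest transcript as length Ly96 became 6.51 in NC and 9.48 in Chol_CA, and moved to rank 2 there.

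**Figure D3:**
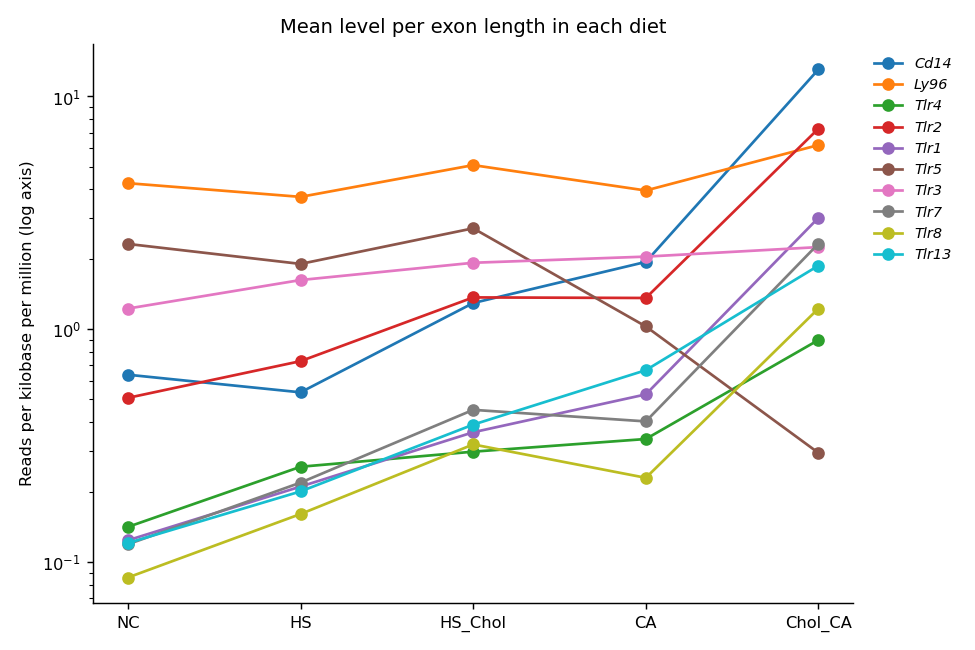
Mean reads per kilobase per 1000000 of each gene (log vertical axis) in each diet; lines only join points of a gene, diets have no order, and no spread is drawn. Cd14 stands at 0.64 in NC and 13.1 in Chol_CA, and Tlr5 at 2.33 and 0.29.

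Summed macrophage markers were also highest in Chol_CA. Of a Kupffer cell list of 14, 13 were in the table. Their summed level stood at 1206 to 3141 CPM in Chol_CA and 593 to 1024 in CA. It stood at 355 to 810 CPM in HS_Chol, 229 to 481 in HS and 185 to 251 in NC. In Chol_CA 12 of the 13 were called higher against NC (15% of all genes) and 7 against CA (13.4%), with 0 lower in either. Against CA, 8 were higher and 2 lower at an unadjusted edgeR p under 0.05. In CA against NC 12 of the 13 were also called higher (5.22% of all genes). The calls numbered 4 in HS_Chol (1.71%) and 0 in HS (0.214%) against NC, with 0 lower in any of these. Markers of lipid-associated and monocyte-derived macrophages (11 genes) stood at 530 to 2240 CPM in Chol_CA, 140 to 330 in CA, 221 to 275 in HS and 112 to 226 in NC. In HS_Chol they stood at 120 to 168 CPM, below every HS library and within the range of NC. Neutrophil markers (10 genes) stood at 0.286 to 2.27 CPM in NC and 11.9 to 82.6 in Chol_CA, and Ly6g, Cxcr2, Retnlg and Mmp8 had no reads in NC. Dendritic cell markers (10 genes) stood at 55.9 to 176 CPM in NC, 195 to 878 in HS_Chol and 1165 to 7329 in Chol_CA. The part of cell numbers in the receptor values was not tested.

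As a share of the summed Kupffer markers, Cd14 stood at 0.493% ± 0.071 in NC (n = 4), 0.412% ± 0.142 in CA (n = 4) and 1.08% ± 0.404 in Chol_CA (n = 4, 0.582% to 1.50%). The lowest Chol_CA library was above the highest NC library (0.565%), but CA, at 0.300% to 0.598%, overlapped Chol_CA. Tlr7 stood at 0.218% ± 0.078 in NC, 0.205% ± 0.099 in CA and 0.546% ± 0.142 in Chol_CA, with NC and Chol_CA apart. Tlr2 at 0.700% ± 0.393 in NC and 1.15% ± 0.274 in Chol_CA overlapped. Tlr4 stayed between 0.242% in CA and 0.335% in NC for the means of these 3 diets. Tlr3 was lower per marker in Chol_CA, at 0.716% ± 0.298 against 2.91% ± 0.729, although its level was higher. Ly96 stood at 1.94% ± 0.414 in NC, 0.511% ± 0.075 in CA and 0.336% ± 0.045 in Chol_CA. Tlr5 went from 5.05% ± 1.51 to 0.095% ± 0.060. Per read of Emr1, the F4/80 gene, Cd14 stood at 0.371 in NC and 0.458 in Chol_CA, and those ranges overlapped. Tlr7 per Emr1 read stood at 0.159 in NC (0.0870 to 0.25) and 0.198 in Chol_CA (0.174 to 0.217), which also overlapped.

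**Figure D4:**
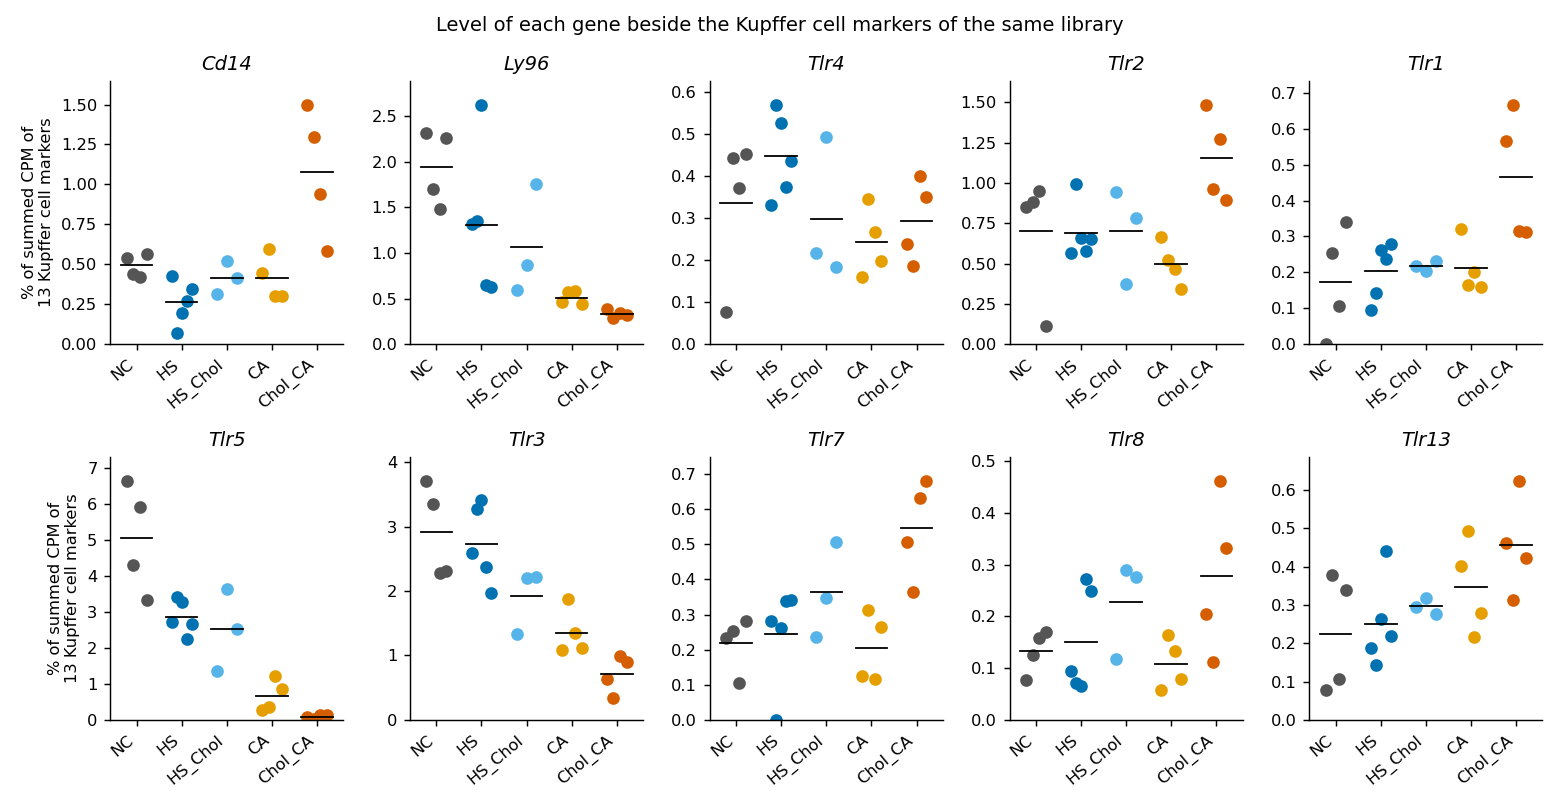
Each gene's CPM as a percentage of the summed CPM of 13 Kupffer cell markers (vertical axis), per library and diet. Cd14 stands at 0.582% to 1.50% in Chol_CA against at most 0.565% in NC and 0.598% in CA. Tlr5 falls from a mean of 5.05% in NC to 0.095% in Chol_CA.

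The genes around these receptors were taken from lists chosen with earlier results of these data known, and their counts read against the shares of all genes given above. Of 5 tested among the other Toll-like receptors and the CD180 complex, 4 rose on Chol_CA and 3 each on CA and HS_Chol against NC. Ly86, the MD-1 gene, rose by 4.34 ± 0.52 on Chol_CA (adjusted p = 5.03e-06) and 2.27 ± 0.53 on CA (0.00857), and its partner Cd180 by 3.99 ± 0.50 (8.61e-06) and 2.01 ± 0.52 (0.0162). Tlr9, for CpG DNA, rose by 4.09 ± 0.52 on Chol_CA (9.86e-06), 1.92 ± 0.60 on CA (0.0451) and 2.92 ± 0.60 on HS_Chol (0.00721). Tlr9 rested on 7 reads in NC. Tlr9 and Tlr11 reached the filter's level in too few libraries outside Chol_CA (2 and 1, where 3 are needed) to be tested without that diet.

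Of 6 tested genes of lipopolysaccharide and lipid handling, 5 rose on CA and 5 on Chol_CA. Lbp, the plasma protein that brings lipopolysaccharide to CD14, went from 109 ± 18.3 CPM in NC to 217 ± 20.7 in CA (adjusted p = 0.000811). The scavenger receptor gene Cd36 went from 45.8 ± 13.8 to 177 ± 74.0 CPM in CA (adjusted p = 0.00302) and stood at 49.2 ± 8.75 in Chol_CA, a log2 difference from CA of −1.85 ± 0.39 (adjusted p = 0.00223). Itgb2 and Itgam, the subunits of complement receptor CR3, rose by 4.76 ± 0.52 (2.01e-06) and 4.13 ± 0.46 (2.50e-06) on Chol_CA. Aoah, which deacylates lipopolysaccharide, rose by 3.63 ± 0.52 (2.75e-05).

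Of 10 folding and trafficking genes 1 rose on Chol_CA, Unc93b1, the chaperone of endosomal receptors (2.01 ± 0.27, adjusted p = 1.82e-05), and Hsp90b1 fell on CA (−0.68 ± 0.20, 0.0342). Of 5 endosomal proteases, which cut these receptors, 4 rose on Chol_CA (Ctsk tested only because of its level there), among them Ctss (4.72 ± 0.52, 2.09e-06) and Lgmn (2.33 ± 0.23, 6.64e-07). Of 20 adaptors and kinases 4 rose and 2 fell on Chol_CA, near the shares of all genes (15% higher, 9.35% lower), and on CA edgeR called 0, with 2 higher and 0 lower at an unadjusted p under 0.05. Map3k8 rose by 2.19 ± 0.35 (9.23e-05) and Chuk fell by 0.84 (SE 0.16; 0.00062). Ticam2, the adaptor of TLR4 and TRIF, had 1 read in NC and 68 in Chol_CA (adjusted p = 0.000244), and was tested only because of its level in Chol_CA.

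Of 12 transcription factors 6 rose and 1 fell on Chol_CA, with Irf8 at 3.11 ± 0.43 (adjusted p = 2.11e-05), Relb at 3.50 ± 0.54 (6.30e-05) and Jun at −1.35 ± 0.23 (0.000171). Of 16 negative regulators, 3 of them tested only because of their level in Chol_CA, 8 rose and 1 fell, with the deubiquitinase gene Tnfaip3 at 3.32 ± 0.29 (2.29e-07) and Irak3 at 3.06 ± 0.45 (3.74e-05). Tnfaip3 also rose on CA (2.07 ± 0.29, 0.000123) and HS_Chol (1.34 ± 0.33, 0.0309). Of 23 endotoxin-induced targets 19 were tested, 6 of them only because of their level in Chol_CA, and all 19 rose on that diet. On CA 2 rose, Icam1 (1.20 ± 0.26, 0.00575) and Vcam1 (1.48 ± 0.36, 0.0116). Lcn2, a siderophore-binding protein gene, went from 3.07 ± 1.11 CPM in NC to 391 ± 403 in Chol_CA (39.1 to 915; adjusted p = 1.07e-05).

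**Figure D5:**
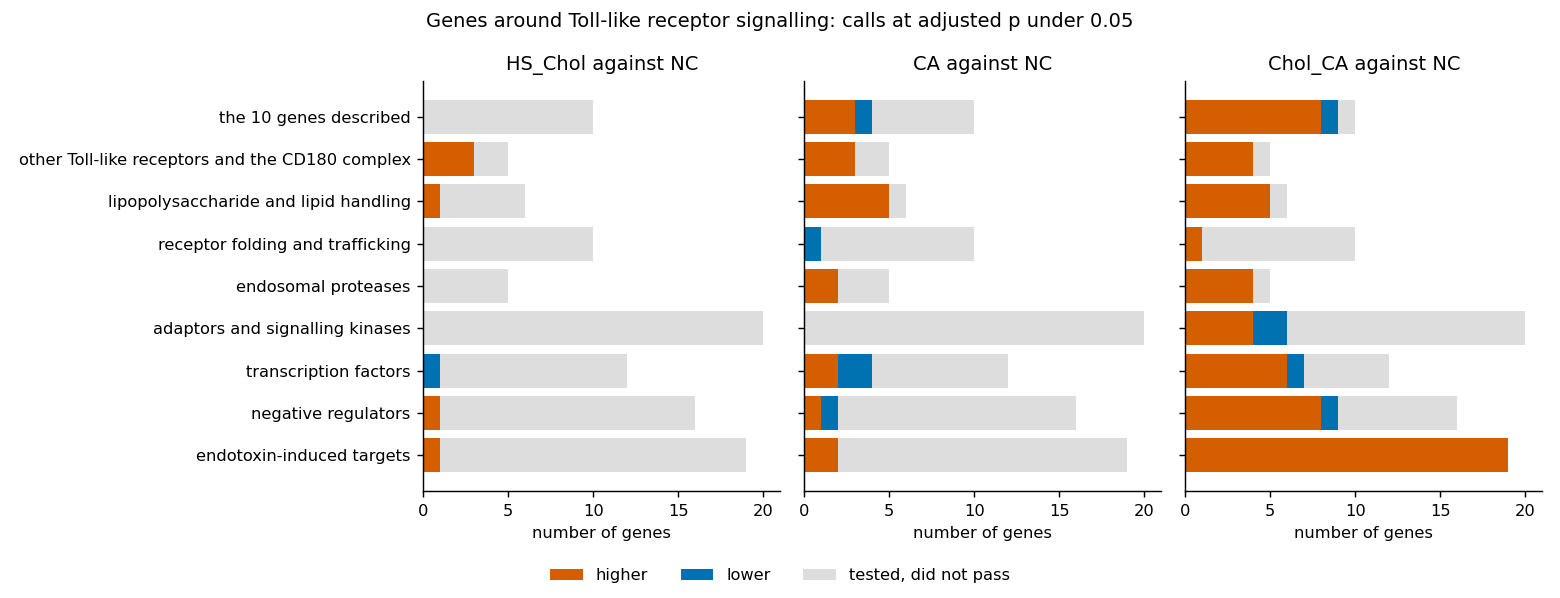
Number of tested genes (horizontal axis) of each list called higher, lower or neither in 3 comparisons against chow. On Chol_CA all 19 endotoxin-induced targets are higher and 6 of 20 adaptors and kinases pass, 4 higher and 2 lower. Of these lists 6 targets and 1 adaptor were tested only because of their level in Chol_CA. Over all genes tested 15% are higher there and 9.35% lower.

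Genes with the most alike log2 CPM over the 20 libraries were sought for the 4 members with the smallest unadjusted p in any comparison. The search covered tested genes, without numbered Gm and AC symbols, Rik and -ps symbols and accession-like ones. The genes most like Cd14 were Lpcat2 (Pearson r 0.97), Igsf6 (0.97) and Lgmn (0.96), and those most like Tlr7 were Prkcb (0.97), Slc43a2 (0.95) and Prex1 (0.95). For Tlr13 they were Slc7a8 (0.97), Soat1 (0.97) and Clec4a3 (0.97), and for Tlr2 Gpr65 (0.95), Galnt6 (0.94) and Plekho2 (0.94). Among the 10 genes r was 0.94 for Tlr1 with Tlr13 and 0.93 for Tlr7 with Tlr8, and −0.52 to −0.84 for Tlr5 with each of the rest. These points share diets, depth and length trend, so r is a description.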

How the data were processed

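The authors deposited raw read counts per gene symbol for whole liver RNA; per the submitters' processing notes reads were aligned to mm10 with STAR 2.6.1c, and per the labels the stranded libraries were counted with STAR's gene counts option. The strand counted is not given in the sources used here. Of the 23 columns, 20 matched a diet by name and 3, whose names match no label, were left unused. The diet of sucrose, cholesterol and cholic acid together, with 3 labelled samples, was not analysed here; whether the unused columns are its libraries cannot be told from the names. HS_Chol has 3 columns for 4 labelled samples. Column numbers start at 0 and those of the labels at 1, so no column was tied to a single sample.

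Counts were tested with edgeR 4.0.16 (R 4.3.3; TMM, filterByExpr by diet, robust quasi-likelihood fit, 1 mean per diet), over 12595 genes, with Benjamini-Hochberg adjustment over all of them. CPM are reads per 1000000 by effective library size. Errors are SD between libraries for levels and SE for log2 fold changes. The procedure was tested on simulated data. Of 34436 symbols, 29014 matched GENCODE M21 directly and 1875 by an older name. At these depths 3 reads are the floor of detection in a library, for counting error only. Alternatives were DESeq2 1.42.0, RLE size factors, other filters, fewer diets, each library left out, and the length trend.

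The members and gene lists were chosen with earlier results of these data known. Named were all members, at most 4 genes per list with the smallest adjusted p in a comparison, and the 3 genes most like each of 4 members. Other marker lists (B cell, T and NK cell, endothelial, stellate, cholangiocyte) had summed levels in NC and Chol_CA of 1.30 to 6.10 and 5.56 to 14.1 CPM, 2.33 to 8.51 and 10.9 to 55.5, 227 to 444 and 202 to 575, 235 to 485 and 499 to 791, and 48.9 to 68.5 and 56.7 to 76.2. The planned comparison of the receptors' proteins was not run.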

Additional observations from a re-analysis of the deposited data

Results flagged for a closer look

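Of 40 values per gene and diet (4 or 5 libraries) 5 held a library far from the others; chance marks about 1 in 20. Tlr1 stood at 3.29 CPM in CA_0, which has a negative length trend, against 1.18 to 1.29 in the other CA libraries. Tlr4 stood at 2.71 CPM in CA_1 and at 1.58 to 1.64 in the others. Tlr5 stood at 12.9 CPM in HS_4 against 7.81 to 8.97, and at 0.457 CPM in Chol_CA_1 against 1.62 to 1.85. Cd14 stood at 1.42 CPM in NC_3 against 0.969 to 1.04.

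The change of Tlr5 with cholesterol differed between the cholic acid and the sucrose diets. The difference was −2.31 on the log2 scale by edgeR's test of the interaction (SE 0.53, adjusted p = 0.0118). Every Chol_CA library was below every CA library, while HS_Chol and HS overlapped.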

How the results depend on the processing

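Of 1145 log2 fold changes of the 10 genes under alternatives, 1086 kept their direction and side of the threshold, 25 lost a call, 16 gained one and 18 changed sign, all of them uncalled. For Chol_CA against NC 8 genes were higher and 1 lower in all 16 alternatives. For Chol_CA against CA 5 to 7 were higher, with calls lost without CA_2 and without both Chol_CA_0 and Chol_CA_1. Over all genes 960 of 12535 and 716 of 12644 were higher in those fits, against 1693 of 12595 in the main fit. The cause of these shifts was not tested. No paired analysis was possible because the columns' numbers could not be tied to the labels' replicate numbers, and the replicate block was not run.

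For HS_Chol against NC the higher genes numbered 1 with DESeq2, 1 with only the diets compared and 0 to 1 without a library, against 0. Over all genes the higher ones numbered 355 of 12595 with DESeq2 and 172 of 11486 with only the diets compared, against 216 of 12595. For CA against NC the higher members numbered 7 with DESeq2, 5 among libraries with a positive length trend, 5 with a trend term and 1 to 3 without a library. The lower members numbered 0 with only the diets compared and 0 to 1 without a library. Over all genes, 425 of 11426 were lower with only the diets compared, and counts of higher genes stand with the CA results above. For the interaction the higher members numbered 2 with a positive length trend (Tlr2, Tlr8) and 0 to 1 without a library. The lower numbered 0 with a positive trend and 0 without Chol_CA_0 and Chol_CA_1, an alternative added after seeing the data. Over all genes, 577 of 12421 were higher and 839 lower with a positive trend. Without Chol_CA_0 and Chol_CA_1, 322 of 12644 were lower.

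Signs changed among libraries with a positive length trend for Cd14 in HS against NC (0.43), for Tlr1 (−0.27), Tlr2 (−0.20), Tlr4 (−0.12) and Tlr13 (−0.089) in HS_Chol against HS, and for Tlr3 (0.11) and Ly96 (−0.83) in the interaction; a trend term gave −0.19 for Ly96. Without 1 library they changed for Ly96 in CA against NC (NC_3, 0.045, from −0.19) and the interaction (HS_2, −0.034; Chol_CA_1, −0.027; up to 0.34), Cd14 in HS against NC (HS_1, 0.020, from −0.49), Tlr5 in HS_Chol against NC (HS_Chol_1, −0.19), Tlr4 in HS_Chol against HS (HS_Chol_1, −0.25, up to 0.58), and Tlr3 in the interaction (CA_1, 0.091, from −0.26) and Chol_CA against CA (CA_2, −0.025, up to 0.34). Without Chol_CA_0 and Chol_CA_1, Ly96 came to −0.041 against NC and −0.41 in the interaction. In NC, 9 reads of Tlr8 and 12 of Tlr1 over 4 libraries limit the precision of their fold changes.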
